A study of Mus musculus with 3 samples.

Results

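Clustered histone genes are the short, mostly intronless genes that supply the histone proteins of newly replicated chromatin. They were chosen by symbol, as every gene row whose name starts with Hist1h, Hist2h, Hist3h or Hist4h. The rule gave 67 of the 32285 genes measured: 6 genes for the linker histone H1, 18 for H2A, 18 for H2B, 12 for H3 and 13 for H4. The Hist1 cluster holds 54 of them, the Hist2 cluster 10 and the Hist3 cluster 2, and Hist4h4 stands alone. Over all kept cells, Hist1h2bq had 0 UMIs (unique molecular identifiers, each counting 1 captured transcript), and Hist1h2aa, Hist1h2ba and Hist2h2aa2 had 1 to 10 UMIs.

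The cells were lineage-negative, KIT+ cells, the fraction of blood-forming cells that lacks the surface markers of mature lineages and carries the receptor KIT, sorted from the livers of mice at postnatal day 0. CITE-seq read the RNA and 10 antibody tags of each cell, and only the RNA was used here. There were 3 libraries, 1 per group. The first was from Control mice, the second from MLL-ENL mice and the third from mice with MLL-ENL and a deletion of Skida1 (below, the Skida1-deleted library). MLL-ENL, written MLL::ENL in the study's design, is the leukaemia fusion that joins the histone methyltransferase gene KMT2A (MLL) to MLLT1 (ENL), and the Skida1-deleted mice carry it too. The sources used here do not name the strain, the promoter or Cre behind each allele, the deleted stretch of Skida1 or the number of mice pooled. With 1 library per group, the library and the genotype cannot be told apart: no p-value is given between groups, and every interval on a level or a fold is a 95% exact interval for counting error only.

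The 3 libraries kept 5510, 10154 and 9168 cells with medians of 28485, 14704 and 17032 UMIs, in the order Control, MLL-ENL, Skida1-deleted, which is used throughout. Pairs of libraries shared 13 to 21 cell barcodes. Clusters were named by marker genes and joined into 5 classes. The class of stem and multipotent progenitor cells (HSPC-like) numbered 1190, 1590 and 2146 cells, the granulocyte progenitor-like class 311, 374 and 458, the megakaryocyte-like class 105, 481 and 848, the basophil-mast-eosinophil-like class 184, 388 and 377, and the erythroid-like class 3629, 7165 and 5222. The defining markers stood in their classes: Hlf at 180, 273 and 304 CPM (UMIs scaled to 1000000 gene UMIs of the class) in HSPC-like cells, Mpo at 3668, 3767 and 4354 in granulocyte progenitor-like cells, Pf4 at 2120, 2232 and 1798 in megakaryocyte-like cells and Klf1 at 207, 84.2 and 89.5 in erythroid-like cells. Kit, the sorted receptor, was at 159, 214 and 283 CPM in HSPC-like cells. Skida1 had 19, 306 and 42 UMIs in HSPC-like cells and 16, 371 and 31 in erythroid-like cells, so the library labelled Skida1-deleted was low but not at 0, and whether these UMIs lie outside the deleted stretch was not tested. Different clusters held most HSPC-like and erythroid-like cells in Control and in both fusion libraries. The fusion libraries also differed from each other in erythroid-like clusters. Some held 2542 and 96, 1335 and 91, or 122 and 2013 cells of MLL-ENL and Skida1-deleted. Others were shared more evenly, such as those with 869 and 973 or 1540 and 1363 cells. The part of this in the ratios between libraries was not tested. The basophil-mast-eosinophil-like class also held HSPC markers (summed level 2485, 1394 and 1599 CPM) and Mpo (2237, 1530 and 1801 CPM).

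Cells make the canonical core histones H2A, H2B, H3 and H4 and most H1 in S phase, when copied DNA must be packed. Their mRNAs end in a stem-loop bound by SLBP in place of a poly(A) tail, and NPAT and CASP8AP2 (FLASH) act at the clusters to transcribe and process them. Non-clustered genes such as H3f3a and H2afz give polyadenylated mRNAs through the whole cell cycle, and a few clustered members, among them Hist1h1c, Hist1h2bc and Hist2h2be, are also known for polyadenylated mRNAs outside S phase. The libraries captured RNA by poly(A), so a member's level is the level of its captured transcripts. How stem-loop mRNAs entered the libraries was not tested, and levels of different members are not compared as amounts of RNA. Many members are near-identical in sequence and share reads. The sources used here do not say how reads matching several members were counted, so values of single members, and family sums where such reads were discarded, are uncertain in that respect.

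The start sites of 4 members are shown because these genes stand for the patterns described below. Hist1h1b stands for the H1 genes that were lower in both fusion libraries, and Hist1h4d for the H4 genes that were highest in the Skida1-deleted library. Hist1h4i is an H4 gene that differed less between the fusion libraries, and Hist3h2ba an H2B gene highest in HSPC-like cells. Each sequence is the 200 bases before the RefSeq start (build GRCm38.p6), 5′ to 3′ on the gene's strand. The windows are Hist1h1b at chr13:21780626-21780825 on the minus strand, Hist1h4d at chr13:23581368-23581567 on the plus strand, Hist1h4i at chr13:22041363-22041562 on the minus strand and Hist3h2ba at chr11:58948711-58948910 on the plus strand. Capitals mark matches, on either strand, to the TATA motif TATAAA, to the CCAAT motif, to the octamer motif ATTTGCAT and to the H1 box, spelled AAACACA. No match overlapped a match to another motif in these windows.
Hist1h1b: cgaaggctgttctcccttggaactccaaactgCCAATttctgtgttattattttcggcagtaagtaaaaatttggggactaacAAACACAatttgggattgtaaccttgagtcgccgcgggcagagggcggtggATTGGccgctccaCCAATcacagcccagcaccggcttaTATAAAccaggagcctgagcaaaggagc
Hist1h4d: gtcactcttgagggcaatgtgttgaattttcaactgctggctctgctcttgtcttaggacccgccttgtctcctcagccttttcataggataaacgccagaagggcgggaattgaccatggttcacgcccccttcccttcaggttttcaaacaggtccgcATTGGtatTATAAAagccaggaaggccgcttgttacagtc
Hist1h4i: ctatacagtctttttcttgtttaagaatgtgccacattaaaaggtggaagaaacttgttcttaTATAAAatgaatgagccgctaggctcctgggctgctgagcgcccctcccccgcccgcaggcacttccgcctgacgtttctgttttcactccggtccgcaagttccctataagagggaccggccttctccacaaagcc
Hist3h2ba: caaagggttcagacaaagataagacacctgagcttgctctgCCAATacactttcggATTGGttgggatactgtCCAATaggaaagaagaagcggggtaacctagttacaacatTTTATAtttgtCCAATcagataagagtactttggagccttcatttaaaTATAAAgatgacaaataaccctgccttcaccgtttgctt

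Hist1h1b carries an H1 box that starts 117 bases before its start, 3 CCAAT matches and a TATAAA 28 bases before it. Hist1h4d has a reverse CCAAT at 40 and a TATAAA at 32 bases, whereas Hist1h4i has a TATAAA at 137 bases and no CCAAT in the window. Hist3h2ba has 4 CCAAT matches in either direction and TATAAA matches at 39 bases and, in reverse, at 87. RefSeq windows of 300 bases (250 before to 50 after the start) were found for 61 of the 67 members. TATAAA was in 35 of them (57.4%) against 14.2% of all 27025 promoters, and CCAAT in 52 (85.2%) against 37.9%. The octamer was in 13 (21.3%) against 1.75%: in 7 of 17 H2A and 6 of 16 H2B windows and in no H1, H3 or H4 window. The H1 box was in 9 (14.8%) against 7.14% of all promoters, and in 5 of the 6 H1 windows. CCAAT was in every H1, H2A, H2B and H3 window, but in 3 of 12 H4 windows (25%). Those 3 were Hist1h4a, Hist1h4c and Hist1h4d. Like Hist1h4h, whose window lacks CCAAT, they were higher in the Skida1-deleted library than in MLL-ENL in all 5 classes. A match is a description of the letters and shows no binding.

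The family sums moved apart between the libraries: H1 was lower in MLL-ENL than in Control in all 5 classes, while H2A, H2B and H4 were higher in all 5. In HSPC-like cells, summed H1 was 3163, 1640 and 1956 CPM, H2A 575, 698 and 1062, H2B 270, 364 and 476, H3 385, 343 and 552, and H4 293, 347 and 685. In erythroid-like cells, summed H1 was 3541, 2458 and 2521 CPM, H2A 620, 1131 and 1536, H2B 222, 346 and 427, H3 379, 502 and 662, and H4 268, 450 and 732. H1, which binds the linker DNA between nucleosomes, therefore made up 70%, 50.1% and 42.5% of the members' captured UMIs over all kept cells, a share that was highest in Control and lowest in the Skida1-deleted library. All members together made up 0.501%, 0.47% and 0.566% of all gene UMIs.

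**Figure D1:**
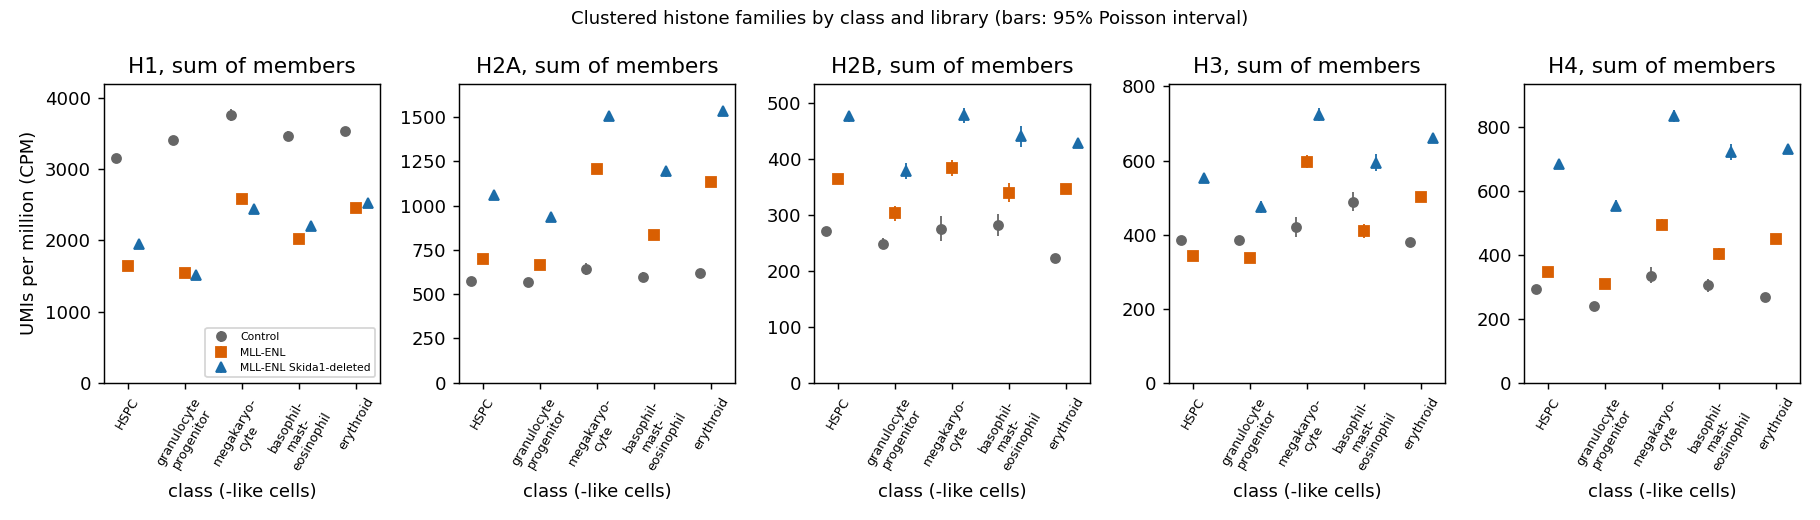
Summed level of each clustered histone family (CPM, y axis) in the 5 classes (x axis) for the 3 libraries, with 95% exact Poisson intervals for counting error. H1 is highest in Control in every class, and H4 is highest in the Skida1-deleted library in every class.

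For MLL-ENL over Control, the H1 sum stood at 0.518 (interval 0.511 to 0.526) in HSPC-like, 0.452 in granulocyte progenitor-like, 0.684 in megakaryocyte-like, 0.582 in basophil-mast-eosinophil-like and 0.694 (0.691 to 0.697) in erythroid-like cells. The core families went the other way in erythroid-like cells, at 1.82-fold for H2A, 1.56-fold for H2B, 1.32-fold for H3 and 1.68-fold for H4. In HSPC-like cells the core folds were smaller, at 1.21, 1.35, 0.892 and 1.19. H3 was lower in MLL-ENL than in Control in HSPC-like, granulocyte progenitor-like (0.875) and basophil-mast-eosinophil-like cells (0.839) and higher in megakaryocyte-like cells (1.42), but in HSPC-like cells its direction turned under 3 alternatives (1.04 to 1.09) and in granulocyte progenitor-like cells with a marker score per cell (1.2). An alternative clustering kept the clustered histone genes, together with the S phase, G2/M and other comparator genes described below. With the histone genes kept for clustering in this way, the granulocyte progenitor-like H2A sum was 0.572 and the H4 sum 0.819. Over 32 values under 8 other settings, the H1 sum stayed below 1 in each (0.215 to 0.779) and the H2B sum above 1 (1.03 to 1.69). All members together were at 0.967 in megakaryocyte-like and 0.971 in erythroid-like cells, and at 1.1 and 1.05 there with TMM scaling. Median depth per cell was lower in MLL-ENL than in Control in all 5 classes (9538.5 against 15264 UMIs in HSPC-like and 20879 against 34579 in erythroid-like cells). With cells thinned to 3000 UMIs the H1 sum was still lower. Thinning gives each cell equal weight but leaves a gene's expected share of a cell's UMIs unchanged, so the part of depth was not tested. There were 3 erythroid-like clusters with a median under 5000 UMIs, of which the largest (median 3948 UMIs) held 16, 2542 and 96 cells. Without all 3 the erythroid-like H1 sum was at 0.678 and H4 at 1.63, and the counts of members given below for these cells were 19 higher and 3 lower.

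Among the H1 genes, Hist1h1b (H1.5) had the most UMIs and carried most of the family's difference between MLL-ENL and Control. It made up most of the H1 sum in Control, but 737 of 1640 CPM in HSPC-like cells of MLL-ENL. Hist1h1b (ENSMUSG00000058773, chr13:21779832-21780625) was at 1858, 737 and 842 CPM in HSPC-like cells, at 2220, 845 and 779 in granulocyte progenitor-like, 2095, 1201 and 1157 in megakaryocyte-like, 2036, 1007 and 1051 in basophil-mast-eosinophil-like and 2203, 1363 and 1398 in erythroid-like cells. Control was above both fusion libraries in every class, and the 2 fusion libraries stood close together. The level in MLL-ENL was 2.52-fold lower than in Control (2.47 to 2.57) in HSPC-like and 1.62-fold lower (1.61 to 1.63) in erythroid-like cells. Hist1h1a (H1.1) was at 218, 99.4 and 126 CPM in HSPC-like and 273, 155 and 173 in erythroid-like cells, 2.2-fold and 1.76-fold lower in MLL-ENL than in Control. Hist1h1e (H1.4) had smaller differences, at 790, 527 and 629 CPM in HSPC-like and 781, 651 and 621 in erythroid-like cells. Hist1h1c (H1.2), the H1 gene known for polyadenylated mRNA, was at 189, 189 and 215 CPM in HSPC-like and 166, 167 and 170 in erythroid-like cells, and the ratio of MLL-ENL to Control had intervals of 0.951 to 1.04 and 0.988 to 1.02. Hist1h1d (H1.3) was at 107, 87.3 and 144 CPM in HSPC-like cells and was the 1 H1 gene called in the Skida1-deleted library over MLL-ENL (1.65-fold, 1.55 to 1.75). The testis gene Hist1h1t was at 0.134, 0.151 and 0.153 CPM over all kept cells and was not measured in any class.

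**Figure D2:**
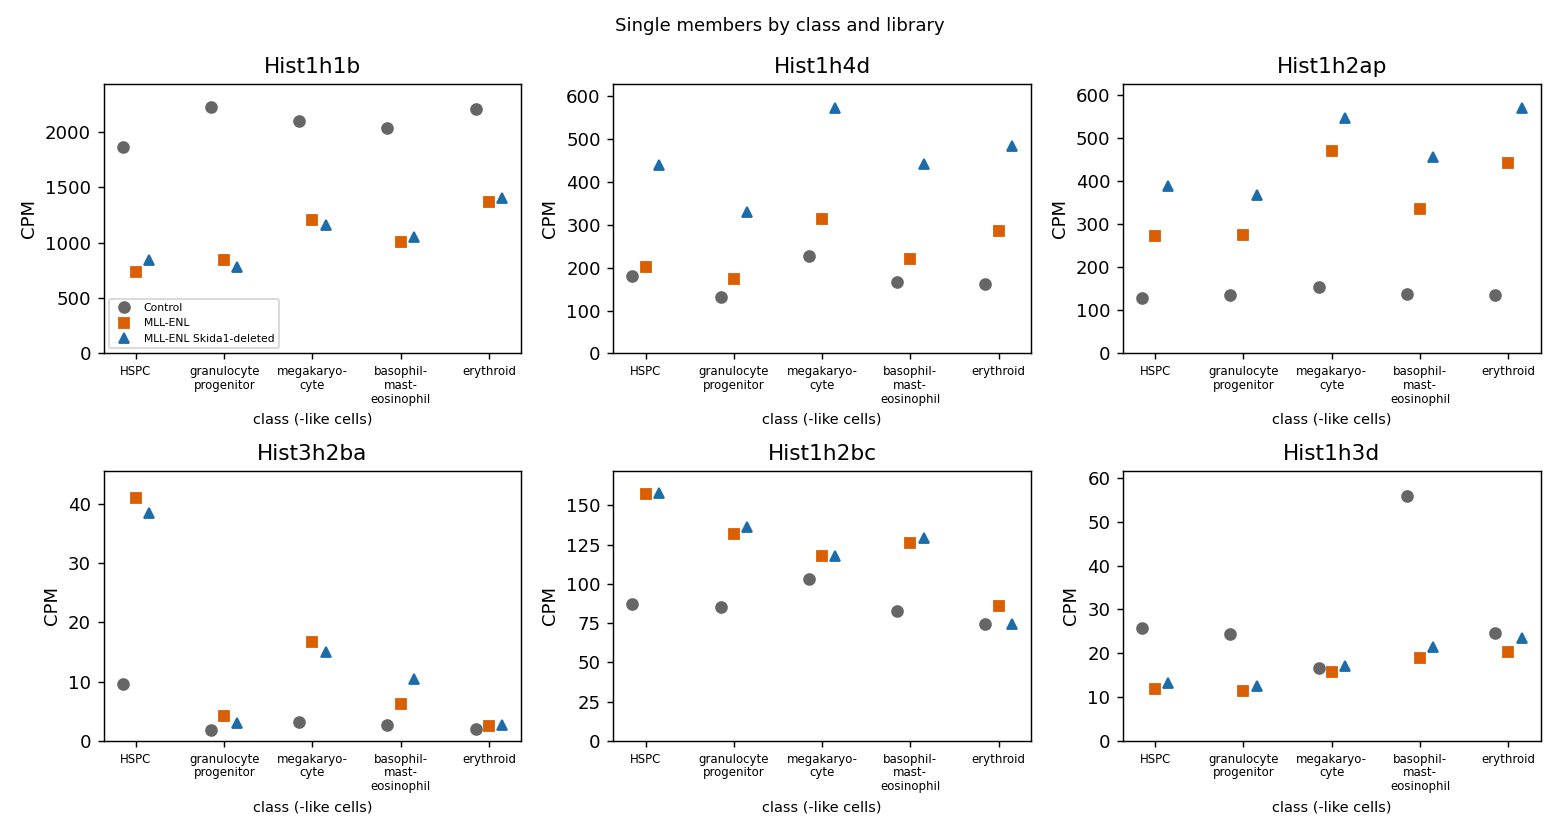
Level (CPM, y axis) of 6 members in the 5 classes (x axis) for the 3 libraries, drawn without intervals for counting error. Hist1h1b is highest in Control, Hist1h4d in the Skida1-deleted library, Hist1h2ap is higher in both fusion libraries, and Hist3h2ba is highest in HSPC-like cells of both fusion libraries.

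A member counted as measured with at least 5 CPM in either library and 20 UMIs over both, and as called at a ratio of 1.5-fold after adding 1 CPM to both levels. For MLL-ENL over Control in HSPC-like cells, 6 of 42 measured members were called higher and 7 lower, where 8.22% of all measured genes were called higher and 14.3% lower. Granulocyte progenitor-like cells had 6 higher and 10 lower of 42 (7.14% and 17.8% of all genes), and megakaryocyte-like cells 18 higher and 4 lower of 46 (8.61% and 17.6%). Basophil-mast-eosinophil-like cells had 12 higher and 9 lower of 45 (6.99% and 16.4%). Erythroid-like cells had 21 higher and 3 lower of 44 (4.51% and 10.9%). The members' median log2 ratio was 0.01 in HSPC-like and 0.55 in erythroid-like cells, where all measured genes had medians of -0.10 and -0.14. By family in erythroid-like cells, 5 of 11 H2A, 7 of 14 H2B, 5 of 8 H3 and 4 of 6 H4 genes were called higher, and 2 of 5 H1 genes and 1 H2B gene lower. TMM scaling shifted the median of all genes by 0.05 to 0.18 and gave 7 higher and 6 lower in granulocyte progenitor-like, 24 and 3 in megakaryocyte-like, 15 and 7 in basophil-mast-eosinophil-like and 26 and 2 in erythroid-like cells. The granulocyte progenitor-like counts were 2 higher and 25 lower with the histone genes kept for clustering and 14 and 5 with a marker score per cell, and in HSPC-like cells 13 were higher with the strict cell filter and 13 lower with thinning. In basophil-mast-eosinophil-like cells 5 were higher at clustering resolution 0.5 or with no doublet removal, and in megakaryocyte-like cells 2 were lower with thinning.

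Called in the same direction in all 5 classes were Hist1h2ap (H2A) and Hist1h2bn (H2B), both higher in MLL-ENL, and Hist1h1b and Hist1h2bl (H2B), both lower. Hist1h2ap was at 129, 273 and 389 CPM in HSPC-like and 135, 441 and 568 in erythroid-like cells, so Control was lowest in both classes. Its ratio of MLL-ENL to Control was 2.11 (2.01 to 2.22) and 3.26 (3.21 to 3.32), but in granulocyte progenitor-like cells, where it was also called higher, the log2 ratio was -0.20 with the histone genes kept for clustering. Hist1h2bn was at 7.23, 17.1 and 29.6 CPM in HSPC-like and 8.11, 29.5 and 39.8 in erythroid-like cells, a ratio of 2.36 (1.93 to 2.9) and 3.64 (3.4 to 3.9) for MLL-ENL over Control. Hist1h2bl was at 7.43, 2.55 and 4.15 CPM in HSPC-like and 7.07, 3.51 and 5.59 in erythroid-like cells, so Control was highest. Its 11 and 20 UMIs in megakaryocyte-like cells and 32 and 18 in basophil-mast-eosinophil-like cells are few, the interval in the former includes 1 (0.751 to 3.8-fold lower), and in the latter the log2 ratio of -1.25 was 1.87 with thinning.

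Other members differed in some classes. Hist1h2an (H2A) was at 33.4, 14.3 and 22.9 CPM in HSPC-like cells, 2.33-fold lower in MLL-ENL than in Control (2.01 to 2.71), and at 42.2, 28 and 39.8 in erythroid-like cells. Hist1h3d (H3) was at 25.8, 11.8 and 13.2 CPM in HSPC-like and 55.9, 18.9 and 21.5 in basophil-mast-eosinophil-like cells, 2.2-fold and 2.96-fold lower in MLL-ENL, but at 16.6, 15.7 and 17.2 in megakaryocyte-like cells. The erythroid-like level of Hist1h2ab (H2A) was 56.8, 131 and 164 CPM, that of Hist1h3f (H3) 31.3, 62.8 and 83.3, and that of Hist1h2bj (H2B) 23.6, 47.2 and 66.6, so Control was lowest and the Skida1-deleted library highest for each. Not all core genes were higher in MLL-ENL than in Control: Hist1h3c (H3) was at 158, 155 and 207 CPM in erythroid-like cells, with an MLL-ENL to Control ratio of 0.983. In HSPC-like cells Hist1h3c was at 153, 106 and 174 CPM, lowest in MLL-ENL.

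**Figure D3:**
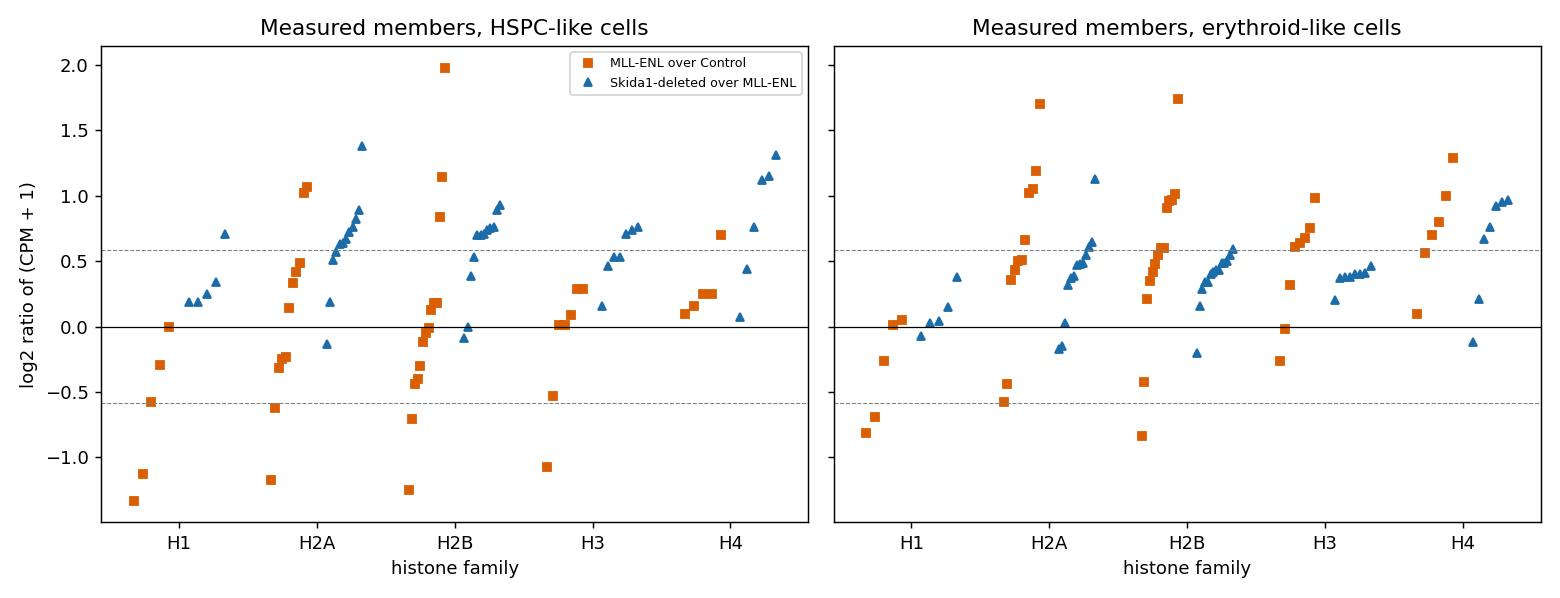
Log2 ratio (y axis) of every measured member, by family (x axis), in HSPC-like and erythroid-like cells, for MLL-ENL over Control and for the Skida1-deleted library over MLL-ENL, with dashed lines at 1.5-fold. In erythroid-like cells 2 of 5 H1 genes lie below the lower line for MLL-ENL over Control, and no member lies below the lower line for the Skida1-deleted library over MLL-ENL.

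The Skida1-deleted library was compared with MLL-ENL, which is also the upper library of the comparison above, so the 2 sets of ratios share that library. H4 was the family with the highest ratio in every class: 1.97 (1.91 to 2.03) in HSPC-like, 1.8 in granulocyte progenitor-like, 1.69 in megakaryocyte-like, 1.8 in basophil-mast-eosinophil-like and 1.63 (1.61 to 1.64) in erythroid-like cells. H2A was at 1.52, 1.41, 1.25, 1.43 and 1.36, H2B at 1.31, 1.25, 1.24, 1.3 and 1.24, and H3 at 1.61, 1.41, 1.21, 1.45 and 1.32 in the same classes. H1 was near 1, at 1.19, 0.977, 0.946, 1.09 and 1.03, and its direction turned under other settings in 9 of 32 values. The H4 sum stayed between 1.47 and 2.02 in all 32.

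In HSPC-like cells, 24 of 42 measured members were called higher in the Skida1-deleted library and 0 lower, where 1.5% of all measured genes were called higher and 0.904% lower. The count was 7 higher and 0 lower with the strict cell filter, which kept 598, 616 and 1667 HSPC-like cells. Granulocyte progenitor-like cells had 15 higher and 0 lower of 42 (2.14% and 2.61% of all genes; 9 higher with a marker score per cell). Megakaryocyte-like cells had 10 higher and 0 lower of 47 (1.94% and 1.54%). Basophil-mast-eosinophil-like cells had 17 higher and 0 lower of 46 (3.23% and 3.64%). Erythroid-like cells had 9 higher and 0 lower of 47 (0.913% and 0.757%; 5 higher with no doublet removal). The members' median log2 ratio was 0.68 in HSPC-like and 0.40 in erythroid-like cells, and that of all measured genes -0.02 and -0.04. By family in HSPC-like cells, 8 of 12 H2A, 8 of 12 H2B, 3 of 7 H3, 4 of 6 H4 and 1 of 5 H1 genes were called higher.

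Called higher in all 5 classes were the H4 genes Hist1h4a, Hist1h4c, Hist1h4d and Hist1h4h and the H2A gene Hist2h2aa1, and also Hist1h2br (H2B), which the naming rule does not cover and which was picked after its values were seen. Hist1h4d (ENSMUSG00000061482, chr13:23581568-23581969), the H4 gene with the most UMIs, was at 181, 202 and 439 CPM in HSPC-like cells, 131, 174 and 330 in granulocyte progenitor-like, 227, 314 and 571 in megakaryocyte-like, 167, 219 and 442 in basophil-mast-eosinophil-like and 163, 285 and 484 in erythroid-like cells. The order of the libraries was the same in every class, with the Skida1-deleted library highest and its ratio to MLL-ENL at 2.17 (2.09 to 2.26) in HSPC-like and 1.7 (1.68 to 1.72) in erythroid-like cells. Hist1h4h was at 26.8, 44.1 and 111 CPM in HSPC-like and 21.1, 52.9 and 103 in erythroid-like cells, 2.52-fold (2.32 to 2.74) and 1.95-fold (1.9 to 2.01) higher than in MLL-ENL. Hist2h2aa1, at 7.83, 8.75 and 24.4 CPM in HSPC-like and 8.09, 13.4 and 30.4 in erythroid-like cells, had a Control level close to that of MLL-ENL in HSPC-like cells (ratio 0.888 to 1.41). Hist1h4c was at 10.8, 13.1 and 30.2 CPM in HSPC-like and 8.44, 17.9 and 35.8 in erythroid-like cells.

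The higher levels did not extend to all H4 genes. Hist1h4i was at 57.9, 69.3 and 72.8 CPM in HSPC-like and 60.5, 65 and 59.9 in erythroid-like cells, and its ratio of the Skida1-deleted library to MLL-ENL had an interval of 0.972 to 1.13 in HSPC-like and 0.893 to 0.949 in erythroid-like cells. Hist1h2bc (H2B) was at 87.5, 157 and 158 CPM in HSPC-like cells and 74.7, 86.2 and 74.7 in erythroid-like cells, with ratios of 0.951 to 1.05 and 0.844 to 0.89. Hist3h2ba and Hist3h2a, neighbours in the Hist3 cluster, were at 9.62, 41 and 38.4 CPM and 21.5, 44.8 and 40.8 CPM in HSPC-like cells, so both were higher in the 2 fusion libraries than in Control and close between the fusion libraries. For MLL-ENL over Control the HSPC-like ratio was 4.26 (3.63 to 5.03) for Hist3h2ba and 2.08 (1.85 to 2.34) for Hist3h2a.

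Genes outside the clusters gave a background for these differences. In HSPC-like cells, for the Skida1-deleted library over MLL-ENL, the median log2 ratio was 0.05 for 42 S phase genes, 0.24 for G2/M genes, -0.12 for 11 non-clustered histone genes, 0.04 for genes of histone transcription and mRNA 3′ processing and 0.08 for histone chaperones. The members had 0.68. Of these lists, 3 of 50 measured G2/M genes were called higher, and no gene of the other 4 lists was called in either direction. Pcna, the replication clamp, was at 229, 195 and 156 CPM and Mcm3, of the replicative helicase, at 247, 210 and 237 in HSPC-like cells. Slbp, which binds the histone stem-loop, was at 112, 92.1 and 89 CPM and Casp8ap2 at 94.1, 98.7 and 88.5. The non-clustered histone genes H2afz, at 2186, 1461 and 1295 CPM, and H3f3a, at 2471, 2449 and 1909, were lowest in the Skida1-deleted library. The summed non-clustered genes were at 10594, 9614 and 8550 CPM in HSPC-like and 7918, 6568 and 5493 in erythroid-like cells, the opposite order to the H2A, H2B and H4 sums. For MLL-ENL over Control in HSPC-like cells, 16 of 42 S phase and 39 of 51 G2/M genes were called lower and 0 higher, with medians of -0.43 and -0.93, against 0.01 for the members. In erythroid-like cells the medians were -0.20 for S phase, -0.37 for G2/M and 0.55 for the members.

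Among the classes, erythroid-like cells had the highest number of members above HSPC-like cells. The comparison fitted 15 sums (5 classes in 3 libraries), scaled by TMM, with edgeR's quasi-likelihood test. It used the library as a block and Benjamini-Hochberg adjustment, and tested 58 members. With this block, its p-values measure how the class differences vary over 3 libraries of different genotypes. They do not measure the spread of levels between those libraries. In erythroid-like cells 43 members were higher and 3 lower than in HSPC-like cells, where 39.7% of all genes tested were higher and 38.2% lower. These counts are on the TMM scale. In CPM, the Control sums of H2B (222 against 270), H3 (379 against 385) and H4 (268 against 293) were lower in erythroid-like than in HSPC-like cells. The Control sums of H1 and H2A were higher there, and in both fusion libraries only the H2B sum was lower. Megakaryocyte-like cells had 27 higher and 1 lower (21.1% and 22.1% of all genes), basophil-mast-eosinophil-like cells 11 and 1 (15.7% and 15.7%), and granulocyte progenitor-like cells 4 and 5 (23.8% and 25.5%). The members' median log2 fold was 0.60, 0.38, 0.30 and 0.00 in these classes, with 0.02, 0.01, -0.00 and -0.03 for all genes. Without the Control library the higher counts were 51, 37, 27 and 8 in the same order, without MLL-ENL 27, 7, 2 and 1, and without the Skida1-deleted library 29, 14, 4 and 0, and the granulocyte progenitor-like lower count was 8, 1 and 1. Without the library block, with libraries of 3 genotypes as plain replicates, the edgeR counts were 10, 0, 1 and 0 higher (16, 8, 6 and 0 at an unadjusted p under 0.05). By family, 11 of 14 H2A, 9 of 16 H2B, 8 of 10 H3, 11 of 13 H4 and 4 of 5 H1 genes were higher in erythroid-like cells. With the histone genes kept for clustering the granulocyte progenitor-like class had 1 higher and 38 lower, the basophil-mast-eosinophil-like class had 2 higher and 4 lower, the megakaryocyte-like class, with under 100 cells in a library, had 1 higher and 11 lower, and 9 single-gene calls in the granulocyte progenitor-like and basophil-mast-eosinophil-like classes changed direction. Cells of the classes differ in cycling, described next, and its part in these counts was not tested.

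Erythroid-like levels exceeded HSPC-like levels in each library for Hist1h2bj (23.6, 47.2 and 66.6 against 18.5, 20.3 and 38.5 CPM; log2 fold 1.14, SE 0.13, edgeR adjusted p = 7.23e-07), Hist2h2ac (128, 164 and 229 against 97.5, 83.1 and 129 CPM; 1.09, SE 0.11, adjusted p = 1.38e-07) and Hist1h1b (0.98, SE 0.12, adjusted p = 1.12e-06). All log2 folds of this paragraph come from the TMM-scaled fit and differ from ratios of the CPM beside them. The lower members in erythroid-like cells were Hist3h2ba, Hist3h2a and Hist1h2bc. Hist3h2ba (ENSMUSG00000056895, chr11:58948911-58949372) was at 9.62, 41 and 38.4 CPM in HSPC-like cells, 3.23, 16.7 and 15 in megakaryocyte-like, 2.73, 6.23 and 10.4 in basophil-mast-eosinophil-like, 1.85, 4.28 and 3.09 in granulocyte progenitor-like and 1.98, 2.58 and 2.68 in erythroid-like cells. It was lower than in HSPC-like cells in each of the 4 other classes, with a log2 fold of -3.05 (SE 0.26, edgeR adjusted p = 2.70e-08) in erythroid-like and -2.98 (SE 0.34, adjusted p = 5.40e-06) in granulocyte progenitor-like cells, -1.97 (SE 0.33, adjusted p = 0.0003) in basophil-mast-eosinophil-like and -1.14 (SE 0.28, adjusted p = 0.00433) in megakaryocyte-like cells. Hist3h2a, its neighbour, had a log2 fold of -1.17 (SE 0.22, edgeR adjusted p = 0.000147) in erythroid-like cells, at 15.6, 11.2 and 9.92 CPM. For Hist1h2bc the fold of -0.37 (SE 0.12, edgeR adjusted p = 0.0129) lost its call without MLL-ENL (-0.24) and without the Skida1-deleted library (-0.18). Basophil-mast-eosinophil-like cells had higher Hist1h1c, at 299, 241 and 259 against 189, 189 and 215 CPM (log2 fold 0.55, SE 0.07, edgeR adjusted p = 2.55e-05), and higher Hist1h3d (0.98, SE 0.22, adjusted p = 0.00299).

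Cycling was read as Mki67, a protein of proliferating nuclei, after each cell was thinned to 5000 UMIs and shallower cells were left out. Of the erythroid-like cells deep enough, 79.5%, 77.6% and 77% had at least 1 Mki67 UMI (2841 of 3573, 4162 of 5362 and 3755 of 4874), and without thinning 92.8%, 84.6% and 91%. Among HSPC-like cells the shares were lower, 42.5%, 30.3% and 36.2%. Control was highest at this depth, but at 10000 UMIs, which kept 966, 756 and 827 of the HSPC-like cells, the shares were 58.4%, 56.6% and 70.9% and the Skida1-deleted library was highest. Cells with 0 Mki67 UMIs at this depth may still cycle. In erythroid-like cells, positive cells were also deeper than zero cells (medians 36918 against 25293, 28470 against 20993 and 28168 against 21490 UMIs), and the part of depth was not tested.

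Most members were higher in Mki67-positive than in Mki67-zero erythroid-like cells. Of 62 members tested over the 3 libraries with edgeR and a library block, 51 were higher at an adjusted p under 0.05, where 23% of all genes were, and 2 were lower, against 20.2%. Called linked to cycling were the 39 that were also at least 1.5-fold higher, against 2.4% of all genes: 4 of 5 H1, 11 of 16 H2A, 12 of 16 H2B, 7 of 12 H3 and 5 of 13 H4 genes. Family medians of the log2 fold were 0.71, 0.79, 0.74, 0.65 and 0.44, and all genes had 0.00. With Mki67 read at 3000 UMIs 53 members were higher and 11 linked, 10 of them among the 39. Without the library block edgeR gave 0 linked members, 9 at an unadjusted p under 0.05. In HSPC-like cells 53 were linked, 38 of them among the 39.

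The highest fold was that of Hist2h2aa1, from 4.3, 6.04 and 14.4 CPM in zero to 8.78, 14.9 and 34.1 in positive cells (log2 fold 1.20, SE 0.06, edgeR adjusted p = 9.72e-12), followed by Hist1h4b (1.02, adjusted p = 3.40e-06), Hist1h3c (0.96, adjusted p = 2.56e-13) and Hist1h2ab (0.94, adjusted p = 1.80e-11). Hist1h1b stood at 1304, 824 and 960 CPM in zero and 2367, 1461 and 1503 in positive cells. In HSPC-like cells Hist1h1b differed more, from 695, 205 and 247 to 2933, 1583 and 1641 CPM. The linked members' median fold was 3.72, 5.73 and 5.59 in HSPC-like and 1.83, 1.87 and 1.65 in erythroid-like cells, and that of the other tested members 2.06, 2.57 and 2.97 and 1.33, 1.31 and 1.41. The last member inside the threshold was Hist2h3b (log2 fold 0.63) and the first outside it Hist1h2bk (0.56), and Hist1h2ao (0.81) and Hist1h2ah (0.63) were outside on their adjusted p.

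**Figure D4:**
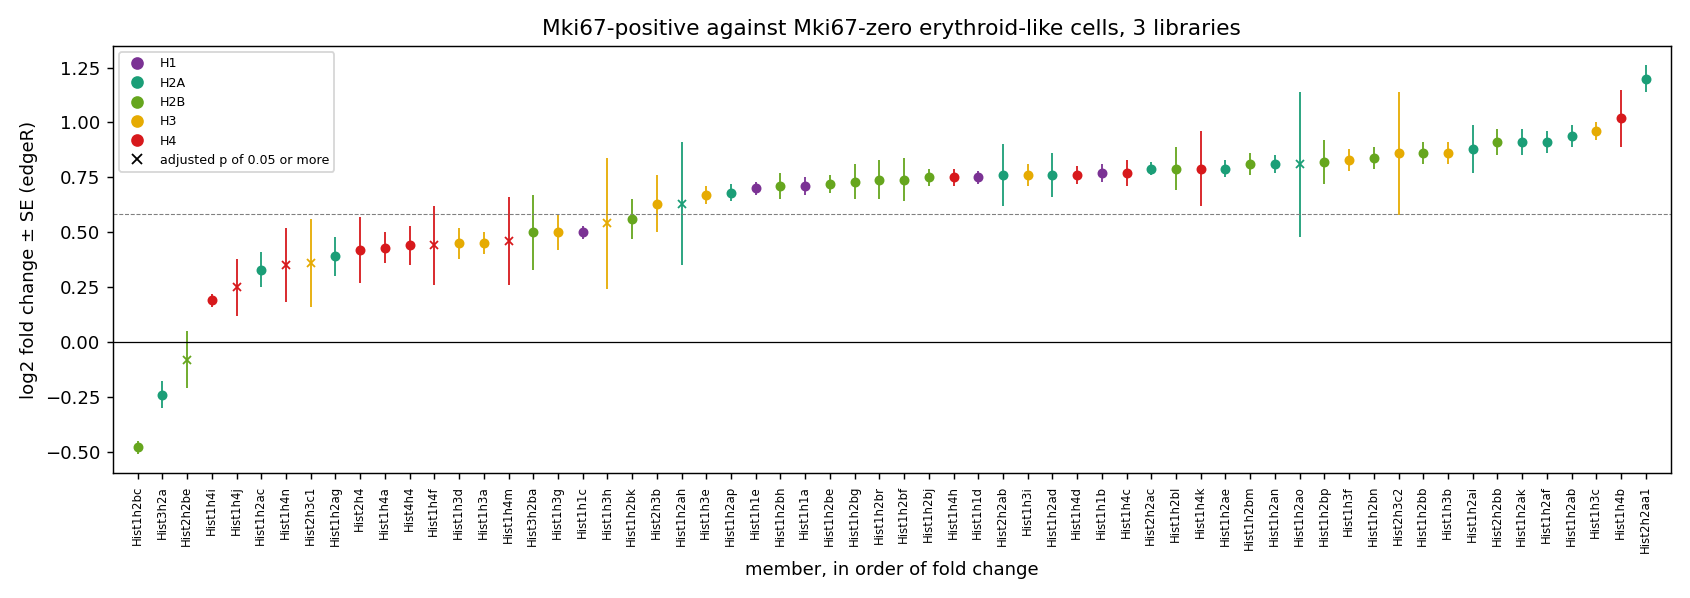
Log2 fold of each of the 62 tested members in Mki67-positive over Mki67-zero erythroid-like cells (y axis, with its standard error), in order of fold (x axis). Crosses mark an adjusted p of 0.05 or more, and the dashed line marks 1.5-fold; Hist1h2bc and Hist3h2a lie at the low end, below 0.

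Hist1h2bc, at chr13:23684199-23692480, went against the rest. It was at 100, 113 and 91.9 CPM in zero and 70.1, 79.3 and 70.8 in positive erythroid-like cells, lower in positive cells of each library (log2 fold -0.48, SE 0.03, edgeR adjusted p = 5.77e-10). In HSPC-like cells it was at 95.1, 162 and 158 and at 79.6, 150 and 149 CPM, a log2 fold of -0.10 that did not pass the threshold. It is one of the 6 members whose RefSeq span exceeds 1000 bases, where 60 others span 375 to 911 bases. Hist3h2a was the other lower member (-0.24, SE 0.06, edgeR adjusted p = 0.0034), a call lost without MLL-ENL (-0.18) and reversed with Top2a in place of Mki67 (0.17) and in HSPC-like cells (0.18). Hist2h2be had -0.08 (edgeR adjusted p = 0.631), and Hist1h4i 0.19 (adjusted p = 0.000165), the lowest of the higher members. Hist3h2ba had 0.50 (edgeR adjusted p = 0.0218), lost without Control or without the Skida1-deleted library and at -0.21 with Mki67 read unthinned.

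Sums of the S phase and G2/M lists gave another split of the cells, in a description added after the data were seen. Cells were split at each library's median of both sums, so low and high are relative to the library. In HSPC-like cells the medians per 5000 UMIs were 17, 10 and 11 for S phase and 21, 12 and 14 for G2/M. In erythroid-like cells they were 24, 22 and 22 and 43, 37 and 37. In erythroid-like cells the H1 sum was lowest where both lists were low (2242, 1646 and 1738 CPM), highest where both were high (4789, 3388 and 3588) and intermediate with S high only (4267, 2642 and 2814) or G2/M high only (2736, 2002 and 2020). H4 had its highest value in the same cells, at 325, 552 and 915 CPM against 204, 324 and 547 where both were low. Erythroid-like Hist1h2bc was highest where both lists were low (119, 113 and 101 CPM) and lowest with G2/M high only (34.3, 50.1 and 48.5), and stood at 66.8, 84.9 and 74.5 where both were high. In HSPC-like cells the H1 sum spanned a wider range, from 574, 410 and 519 CPM where both lists were low and 708, 286 and 382 with S high only to 5927, 3023 and 3526 where both were high. HSPC-like Hist1h2bc was lowest where both were high (39, 95.4 and 97.6 CPM) and highest with G2/M high only (144, 326 and 307).

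**Figure D5:**
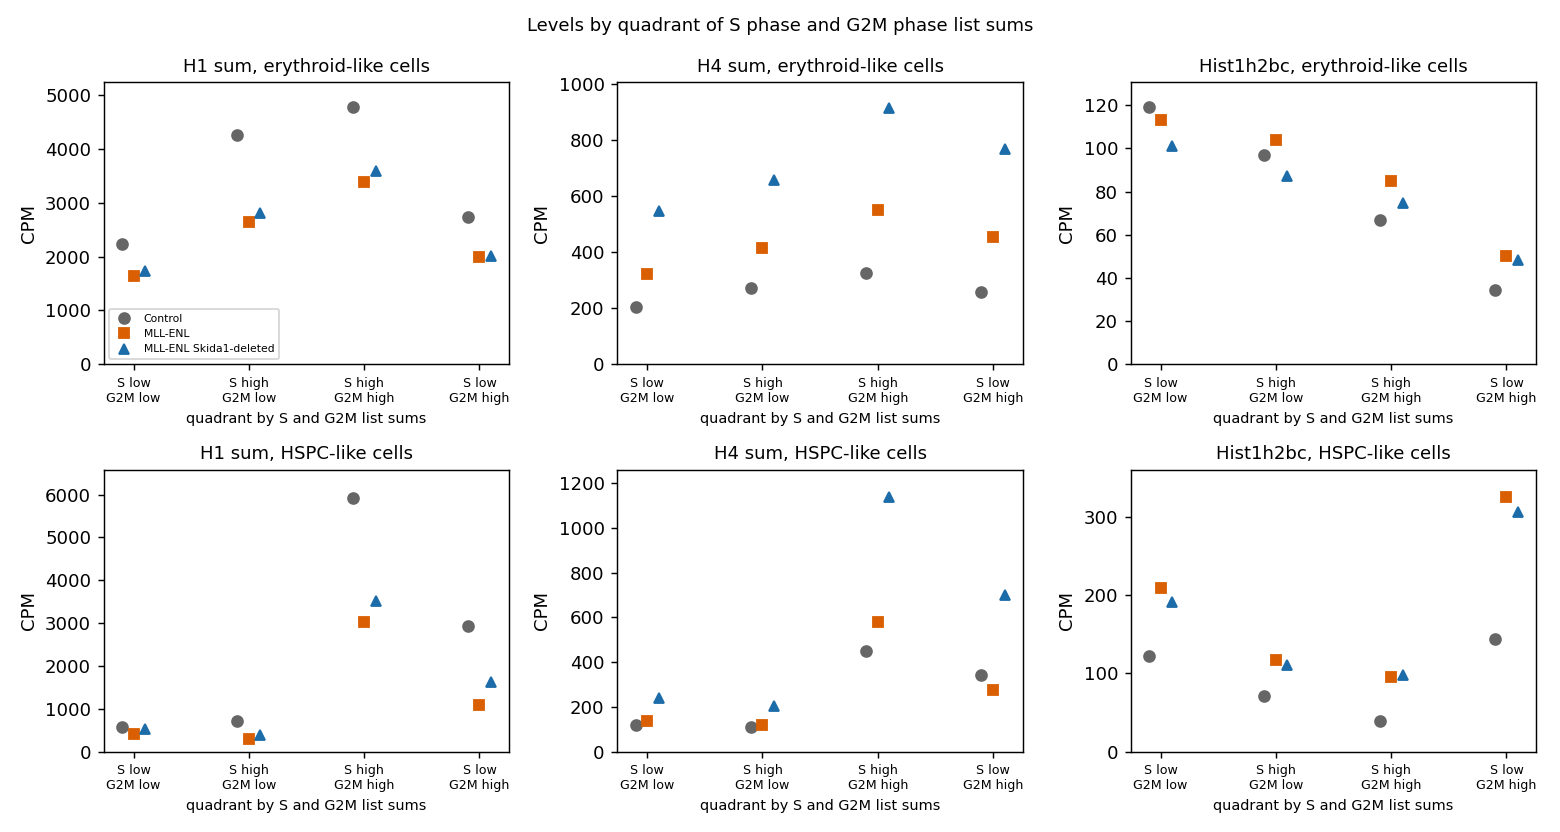
Summed H1, summed H4 and Hist1h2bc (CPM, y axes) in cells split by S phase and G2/M list sums (x axis), in erythroid-like and HSPC-like cells of the 3 libraries. H1 and H4 peak where both sums are high, and Hist1h2bc is lowest there in HSPC-like cells.

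The library differences were also read within Mki67-positive and within Mki67-zero cells. The H1 sum of MLL-ENL over Control was 0.663 in positive and 0.48 in zero HSPC-like cells, and 0.694 and 0.687 in erythroid-like cells. The H4 sum of the Skida1-deleted library over MLL-ENL was 1.9 and 1.8 in HSPC-like and 1.64 and 1.82 in erythroid-like cells. With Mki67 read unthinned both directions turned in zero erythroid-like cells, to 1.41 for H1 and 0.879 for H4. With Mki67 read at 3000 UMIs or Top2a in its place, the H1 ratios stayed below 1 (0.475 to 0.705) and the H4 ratios above 1 (1.61 to 1.99) at either status. Hist1h4d was at 368 and 764 CPM in positive and 97.3 and 193 in zero HSPC-like cells of the MLL-ENL and Skida1-deleted libraries, at 2.07-fold and 1.98-fold. Hist1h1b was at 2933 and 1583 CPM in positive and 695 and 205 in zero HSPC-like cells of Control and MLL-ENL. Hist3h2ba was 4.38-fold and 4.19-fold higher in MLL-ENL than in Control in these cells, at 10.9 and 47.9 and at 7.92 and 33.2 CPM.

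For MLL-ENL over Control, positive HSPC-like cells had 14 members higher and 5 lower of 48 (7.47% and 14.9% of all genes), zero HSPC-like cells 5 and 8 of 29 (8.92% and 15.6%), positive erythroid-like cells 23 and 3 of 44 (4.6% and 10.9%) and zero erythroid-like cells 17 and 4 of 37 (4.12% and 12.5%). For the Skida1-deleted library over MLL-ENL, positive HSPC-like cells had 24 higher and 0 lower of 51 (2.02% and 1.55% of all genes), zero HSPC-like cells 13 and 0 of 32 (1.58% and 1.99%), positive erythroid-like cells 8 and 0 of 47 (0.857% and 0.652%) and zero erythroid-like cells 17 and 0 of 41 (1.24% and 0.811%). The count in zero erythroid-like cells turned with Mki67 read unthinned, to 0 higher and 21 lower, where the zero cells were 1102 with a median of 3826.5 UMIs in MLL-ENL and 472 with a median of 9509.5 in the Skida1-deleted library, and the MLL-ENL over Control count was then 27 and 0. At 3000 UMIs the Skida1-deleted counts were 14 in positive HSPC-like, 21 in zero HSPC-like and 10 in zero erythroid-like cells. Members linked to cycling made up 23 of the 24 called higher in all HSPC-like cells (23 of 32 measured, against 1 of 10 tested members that were not linked), and 8 of the 9 in erythroid-like cells (8 of 35 against 1 of 12). The link was called in erythroid-like cells, and in HSPC-like cells 53 of 57 tested members were linked. Of 15 not-linked members with enough UMIs there, 11 were at least 1.5-fold higher in Mki67-positive HSPC-like cells of all 3 libraries.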

How the data were processed

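RNA and antibody tags of single cells were measured by CITE-seq in 3 libraries, 1 per group, as the labels name them. The deposited values are raw UMI counts per gene and cell, made with Cell Ranger 6.1.2 per the file headers (6.0.1, with build mm10, per the submitters' processing notes) and not normalized by the authors as far as these sources say. Cells with at least 1000 UMIs and 500 genes and under 10% mitochondrial UMIs were kept. The cells with the highest Scrublet scores were removed as doublets, at 0.8% per 1000 cells, since the caller's own calls (391, 384 and 582) did not follow the cell numbers. Cells of all libraries were clustered together with scanpy 1.11.5 (Leiden, resolution 1.0, 30 components of 2000 variable genes, 15 neighbours). Left out of the clustering were the clustered histone genes and the genes of all comparator lists. Xist and other sex-linked genes, and genes with symbols starting with mt-, Rpl or Rps, were also left out. Clusters were named from 14 marker lists. After the clusters were seen, the naming rule was changed to compare a cluster with clusters not given the same name, and the basophil-mast and eosinophil lists were joined. Raw UMIs were summed per library and class. Classes with under 100 cells in a library were not compared.

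Ratios between libraries are of CPM, with 1 CPM added on the log2 scale, and were called at 1.5-fold. Tests over libraries used edgeR 4.0.16 (R 4.3.3) with TMM scaling, a library block and Benjamini-Hochberg adjustment over all genes tested. They followed a check on simulated data, and DESeq2 1.42.0 was used as an alternative. Named genes are all measured H1 genes, the 3 highest of each core family, the 3 highest and 3 lowest ratios of each contrast in HSPC-like and erythroid-like cells, the 4 highest and 4 lowest folds with Mki67, the 3 highest and 3 lowest folds of each class, and the 3 highest of each comparator list. The members and lists were chosen with earlier results of these data known. The S phase and G2/M split, the setting without low-depth clusters and the shared promoters were added after seeing the data. RefSeq gave coordinates and start windows (GRCm38.p6) for 66 and 61 members. Alternatives are given in the closing section.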

Additional observations from a re-analysis of the deposited data

Results flagged for a closer look

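For MLL-ENL over Control, 2 members were called in opposite directions in different classes. These differences were not tested, since each group is 1 library. Hist1h2bk (H2B) had a log2 ratio of 0.90 in basophil-mast-eosinophil-like cells, on 7 and 24 UMIs with an interval of the ratio of 0.935 to 6.15, but -0.65 in granulocyte progenitor-like cells (59 and 27 UMIs, 0.356 to 0.934) and -0.93 in megakaryocyte-like cells (17 and 25 UMIs, at 7.86 and 3.66 CPM, 0.242 to 0.92). Hist1h2ac (H2A) had 0.59 in megakaryocyte-like cells (0.965 to 2.62), but -0.62 in HSPC-like cells (0.538 to 0.746) and -0.77 in basophil-mast-eosinophil-like cells (0.441 to 0.748). The positive values of both genes have intervals that include 1.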

How the results depend on the processing

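Each value was recomputed under the alternatives fixed at the start and under 1 added after seeing the data (clusters of low depth left out). Of the counts of members, 243 of the recomputed values stayed within 1.5 times the reported count and 61 did not, and of the values of single members 3488 were the same in call and direction or within their interval, 630 moved beyond their interval, 204 lost a call, 116 gained one and 24 changed direction. The cause of each change was not tested. With the strict cell filter, HSPC-like cells had 13 members higher in MLL-ENL than in Control and 7 higher in the Skida1-deleted library than in MLL-ENL, and Hist1h2ac had a log2 ratio of 0.08 for MLL-ENL over Control. That filter left 39 to 59 Control cells in the granulocyte progenitor-like, megakaryocyte-like and basophil-mast-eosinophil-like classes, so it gave no values there. With cells thinned to 3000 UMIs, members lower in MLL-ENL than in Control were 13 in HSPC-like, 6 in granulocyte progenitor-like and 2 in megakaryocyte-like cells, and 1 member each was lower in the Skida1-deleted library in megakaryocyte-like and in basophil-mast-eosinophil-like cells. Log2 ratios were then -0.12 for Hist1h2af and, for the Skida1-deleted library, -0.15 for Hist1h2ac, both in granulocyte progenitor-like cells, and 1.87 for Hist1h2bl (MLL-ENL over Control) and -0.16 for Hist2h2ab (Skida1-deleted over MLL-ENL) in basophil-mast-eosinophil-like cells. Hist2h2ab stood there at -0.07 with resolution 0.5, -0.31 with no doublet removal and -0.77 with histone and list genes kept for clustering. When each cell took its class from its own marker score, granulocyte progenitor-like cells had 14 higher and 5 lower for MLL-ENL over Control, 9 higher in the Skida1-deleted library and 2 above HSPC-like cells, megakaryocyte-like cells had 14 above HSPC-like cells, and Hist1h2ac had -0.43 in megakaryocyte-like cells.

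With histone and list genes kept for clustering, granulocyte progenitor-like cells had 2 members higher and 25 lower for MLL-ENL over Control, with Hist1h2ap at -0.20, Hist1h4h at -0.31 and Hist1h2af at -0.82, and basophil-mast-eosinophil-like cells had 7 higher. Against HSPC-like cells, granulocyte progenitor-like cells then had 1 higher and 38 lower (Hist1h1b -0.72, Hist2h2ac -0.50, Hist1h3g -0.66), and basophil-mast-eosinophil-like cells 2 higher and 4 lower (Hist1h1b -0.19, Hist1h2ap -0.28, Hist1h3c -0.41, Hist1h3e -0.21, Hist1h4h -0.14, Hist1h2bn -0.25). Megakaryocyte-like cells then fell below 100 cells in a library (93 in Control) and were not compared between libraries, and the edgeR fit against HSPC-like cells gave 1 higher and 11 lower there, against 27 and 1. This clustering groups cells by the levels of the members themselves and of the list genes, which include the S phase and G2/M genes. TMM scaling gave 6 lower in granulocyte progenitor-like cells for MLL-ENL over Control. Basophil-mast-eosinophil-like cells had 5 higher and 14 lower at resolution 0.5 and 5 higher with no doublet removal, which also gave 5 higher in the Skida1-deleted library in erythroid-like cells. The lower limit on genes gave 1 member lower in the Skida1-deleted library in granulocyte progenitor-like cells. Pseudocount 0.1 and HSPC-like and granulocyte progenitor-like cells joined moved no count by more than 1.5 times.

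Against HSPC-like cells, DESeq2 gave 7 higher in granulocyte progenitor-like and 2 lower in megakaryocyte-like cells, no filter on low genes gave 2 lower in megakaryocyte-like cells, and fits of only the 2 classes compared gave 12 higher in granulocyte progenitor-like, 17 higher in basophil-mast-eosinophil-like and 2 lower in megakaryocyte-like cells. Without the library block the higher counts were 0 in granulocyte progenitor-like, 0 in megakaryocyte-like, 1 in basophil-mast-eosinophil-like and 10 in erythroid-like cells, the lower count was 0 in megakaryocyte-like cells, and 0 members were linked to cycling by edgeR (9 at an unadjusted p under 0.05). No paired analysis by replicate number was possible because each group is 1 library. Leaving out a library, the counts ranged from 0 to 8 higher and 1 to 8 lower in granulocyte progenitor-like, 7 to 37 and 1 to 3 in megakaryocyte-like, 2 to 27 and 1 to 3 in basophil-mast-eosinophil-like and 27 to 51 and 2 to 3 in erythroid-like cells, and from 38 to 40 linked members. With Mki67 read at 3000 UMIs, 11 members were linked, and the Skida1-deleted library had 14 higher in positive HSPC-like, 21 in zero HSPC-like and 10 in zero erythroid-like cells. With Mki67 read unthinned, zero erythroid-like cells had 27 higher and 0 lower for MLL-ENL over Control and 0 higher and 21 lower for the Skida1-deleted library, and Hist3h2ba had a fold with Mki67 of -0.21. With Top2a in its place, the Skida1-deleted library had 8 higher in zero HSPC-like and 9 in zero erythroid-like cells, and Hist3h2a had 0.17 (0.18 in HSPC-like cells). At CPM near 5, as for Hist1h2bl and Hist1h2bk, few UMIs limit what could be seen in the small classes.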

Other observations

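B-lineage cells, too few to compare (44, 90 and 100 cells), had the highest summed member level of any class: 16884, 14261 and 13370 CPM, against 4686, 3392 and 4731 in HSPC-like cells. Their H1 sum was 12182, 8008 and 6441 CPM, highest in Control, and their H4 sum 757, 1130 and 1553 CPM, highest in the Skida1-deleted library. In each of the 5 classes compared the H1 sum was also highest in Control and the H4 sum highest in the Skida1-deleted library, but the lowest H1 sum was in MLL-ENL in 3 of them.

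Divergent H2A and H2B genes, whose starts lie at most 250 bases apart, formed 8 pairs among the members. The pairs described were chosen after their values were seen. Hist1h2ak and Hist1h2bn, on opposite sides of 163 bases (chr13:21753913-21754075, plus strand, GRCm38.p6), had erythroid-like log2 ratios of 1.05 and 1.74 for MLL-ENL over Control. Hist1h2bl and Hist1h2ai, on opposite sides of 228 bases (chr13:21716184-21716411, plus strand), had -0.84 and 0.98, although Hist1h2ai, at 1.42, 3.62 and 6.38 CPM over all kept cells, was below the limit for a measured gene in that comparison. Both windows have 3 or 4 CCAAT matches on either strand, marked in capitals, and neither holds TATAAA, the octamer or the H1 box.
Hist1h2ak and Hist1h2bn: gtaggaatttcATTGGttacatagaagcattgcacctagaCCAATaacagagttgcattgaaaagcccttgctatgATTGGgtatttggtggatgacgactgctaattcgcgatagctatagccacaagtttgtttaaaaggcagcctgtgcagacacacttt
Hist1h2bl and Hist1h2ai: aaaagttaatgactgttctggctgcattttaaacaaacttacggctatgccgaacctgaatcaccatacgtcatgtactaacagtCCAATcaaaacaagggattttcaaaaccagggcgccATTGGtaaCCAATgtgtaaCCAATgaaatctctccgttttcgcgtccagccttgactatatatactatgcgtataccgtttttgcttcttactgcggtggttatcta

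For MLL-ENL over Control, Hist1h2an and Hist1h2bp, 239 bases apart, were both below 0 (-0.58 and -0.42), and Hist1h2ag and Hist1h2bj, 248 bases apart, were at 0.50 and 0.97. For the Skida1-deleted library over MLL-ENL, both genes of each pair named here were above 0 in erythroid-like cells (0.03 to 0.65).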
